A study of Rattus norvegicus with 18 samples.

Results

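The genes described here make, sense, take up and degrade prostaglandins, the short-lived lipid mediators formed from arachidonic acid. They were chosen by name: Ptgs1, Ptgs2, Ptges and Ptgds for synthesis, Ptger1, Ptger3 and Ptger4 for the receptors of prostaglandin E, Slco2a1 for uptake and Hpgd for breakdown. Every probe set, the array's unit of several probes that read the same transcript, was used if the platform annotation gives it exactly 1 symbol and that symbol is among the 9. All 9 genes were on the arrays, of 10969 genes in all, with 16 probe sets: 13 on array type A, 2 on type B and 1 on type C. Total RNA from kidney was compared between 3 samples of a congenic strain and 3 samples of the Dahl salt-sensitive (S) strain. The sample titles name the congenic strain by the letters S and R followed by (9)x3A. All 3 array types were used for every sample. Dahl S rats are inbred and become hypertensive when fed salt. In the congenic strain, chromosome 9 of the S rat holds donor DNA from a salt-resistant (R) strain at a blood pressure quantitative trait locus, and the rest of the genome is that of the S rat, which both groups share. The labels used here give no diet, age, sex or part of the kidney, and do not state that each sample is a different animal. The p-values therefore rest on differences among samples that may be technical. In the GRCr8 gene table the 9 genes lie on chromosomes 2, 3, 8, 13, 16 and 19, and none lies on chromosome 9.

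Cyclooxygenases, encoded by Ptgs1 (COX-1) and Ptgs2 (COX-2), turn arachidonic acid into an unstable prostaglandin intermediate, and terminal synthases such as those of Ptges and Ptgds turn that into prostaglandin E or D. In the kidney COX-1 is found in collecting duct, interstitium and vessels, and COX-2 in the macula densa and in medullary interstitial cells, where salt intake regulates it. Prostaglandin E dilates renal vessels, promotes renin release and lowers sodium and water reabsorption, and is cleared by uptake through the Slco2a1 transporter and oxidation by the Hpgd enzyme.

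The bases just before the start of the 4 enzyme genes of synthesis are shown because Ptgs1 is known as a constitutive gene and Ptgs2 and Ptges as inducible ones. All 9 genes matched an entry of the RefSeq promoter table (build GRCr8). The 250 bases before the annotated start are printed 5′ to 3′ on the gene's strand. Capitals mark matches, on either strand, to the TATA box TATAAA, the GC box GGGCGG, the E-box CACGTG and GCAAT, which is only part of a C/EBP site.
Ptgs1, chr3:39981169-39981418, plus strand: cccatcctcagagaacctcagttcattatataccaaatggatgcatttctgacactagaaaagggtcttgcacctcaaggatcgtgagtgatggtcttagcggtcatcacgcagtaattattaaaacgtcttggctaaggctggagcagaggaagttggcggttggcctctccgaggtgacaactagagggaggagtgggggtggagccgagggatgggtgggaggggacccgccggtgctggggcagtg
Ptgs2, chr13:64713813-64714062, plus strand: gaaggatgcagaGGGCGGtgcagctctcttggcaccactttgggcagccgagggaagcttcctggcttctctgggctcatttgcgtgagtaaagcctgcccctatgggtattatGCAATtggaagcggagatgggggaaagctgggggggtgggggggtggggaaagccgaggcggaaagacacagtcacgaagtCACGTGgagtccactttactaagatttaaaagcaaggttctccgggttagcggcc
Ptges, chr3:34586988-34587237, minus strand: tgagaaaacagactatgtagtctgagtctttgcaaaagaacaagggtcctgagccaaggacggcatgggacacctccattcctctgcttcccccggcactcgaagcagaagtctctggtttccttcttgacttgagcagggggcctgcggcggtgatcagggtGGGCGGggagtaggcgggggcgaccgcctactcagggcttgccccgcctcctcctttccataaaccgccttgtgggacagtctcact
Ptgds, chr3:28682979-28683228, minus strand: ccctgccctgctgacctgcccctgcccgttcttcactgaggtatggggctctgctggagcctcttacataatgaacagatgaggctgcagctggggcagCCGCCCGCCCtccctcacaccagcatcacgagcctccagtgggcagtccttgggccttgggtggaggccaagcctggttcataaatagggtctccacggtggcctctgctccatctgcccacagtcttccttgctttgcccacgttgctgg
The GC box letters were present in this window in 7 of the 9 genes, against 30.5% of 33469 promoters, and matches can overlap, as in Ptgds. Those 33469 are all entries of the RefSeq promoter table with 250 bases. They were not matched to the 9 genes for GC content or kind of gene. The E-box letters were present in Ptgs2 alone of the 9, 55 bases before the start, against 5.6% of promoters. The letters GCAAT were also present in Ptgs2 alone, against 23.2% of promoters, and TATAAA in Slco2a1 alone, against 12.9%. Ptgs1 had none of the 4. These matches describe letters only, not bound sites.

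Signals were used as scaled by the authors and log2 was taken after values below the 10th percentile of the array type were raised to it. A probe set was tested when its mean log2 signal over the 6 samples reached the 40th percentile of its type, called here the filter level: a signal of 21.2 on type A, 39.3 on type B and 37.7 on type C. Detection calls were not used here, so signals under the filter level were not shown to be above background. Of the 16 probe sets 7 were tested, from Ptgs1, Ptges, Ptgds, Ptger3 and Slco2a1. The other 9 probe sets included all those of Ptgs2, Ptger1, Ptger4 and Hpgd. Kidney markers were measured: 15 of 15 proximal tubule markers and 11 of 12 collecting duct markers on the arrays reached the filter level.

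In both strains, sample 1 differed from samples 2 and 3 on every array type. On type A the median signal was 45.9 in congenic sample 1 and 45.5 in Dahl S sample 1, against 34.8 to 39.4 in the 4 other samples. The GAPDH control, read at its 3 prime and 5 prime ends as a measure of RNA quality, had a mean log2 ratio (3 prime over 5 prime) of 0.11 in congenic sample 1 and 0.31 in Dahl S sample 1, against 0.54 to 0.68 in the 4 others. The ratio of the beta-actin control was 0.50 and 0.49 in the samples numbered 1, against 1.06 to 1.35. Of the 16 probe sets, those that moved most without these samples are given with and without them. The number of arrays limits the precision: over all tested probe sets the median 95% confidence interval reached 0.68 log2 units to either side of the difference.

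None of the 5 tested genes of prostaglandin synthesis, reception and uptake passed the test between the strains. Ptgs2, Ptger1, Ptger4 and the breakdown gene Hpgd were not tested. At an adjusted p under 0.05 (limma, Benjamini-Hochberg over all 15721 tested probe sets) 0 of the 7 tested probe sets were called, as were 0 of all tested (0%). At an unadjusted limma p under 0.05 there were again 0 of 7, against 2.49% of all tested probe sets. Of the 7, 1 (Ptges) had congenic and Dahl S values that did not overlap, against 7.08% of all tested probe sets. It was higher in the congenic samples, a pattern of 3.59% of all tested probe sets, and 0 of the 7 lay wholly lower, against 3.49%. Of the 9 untested probe sets 0 were without overlap, against 4.97% of all untested ones. With 1 probe set per gene, 5 of the 9 genes had a higher congenic mean, as did 5294 of all 10969 genes. Ptger1 and Ptger4, which were not tested, are among the 5. The median log2 difference (congenic minus Dahl S) of the 9 was +0.09, against -0.01 over all 10969 genes. Without congenic sample 1 that median was -0.24.

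**Figure D1:**
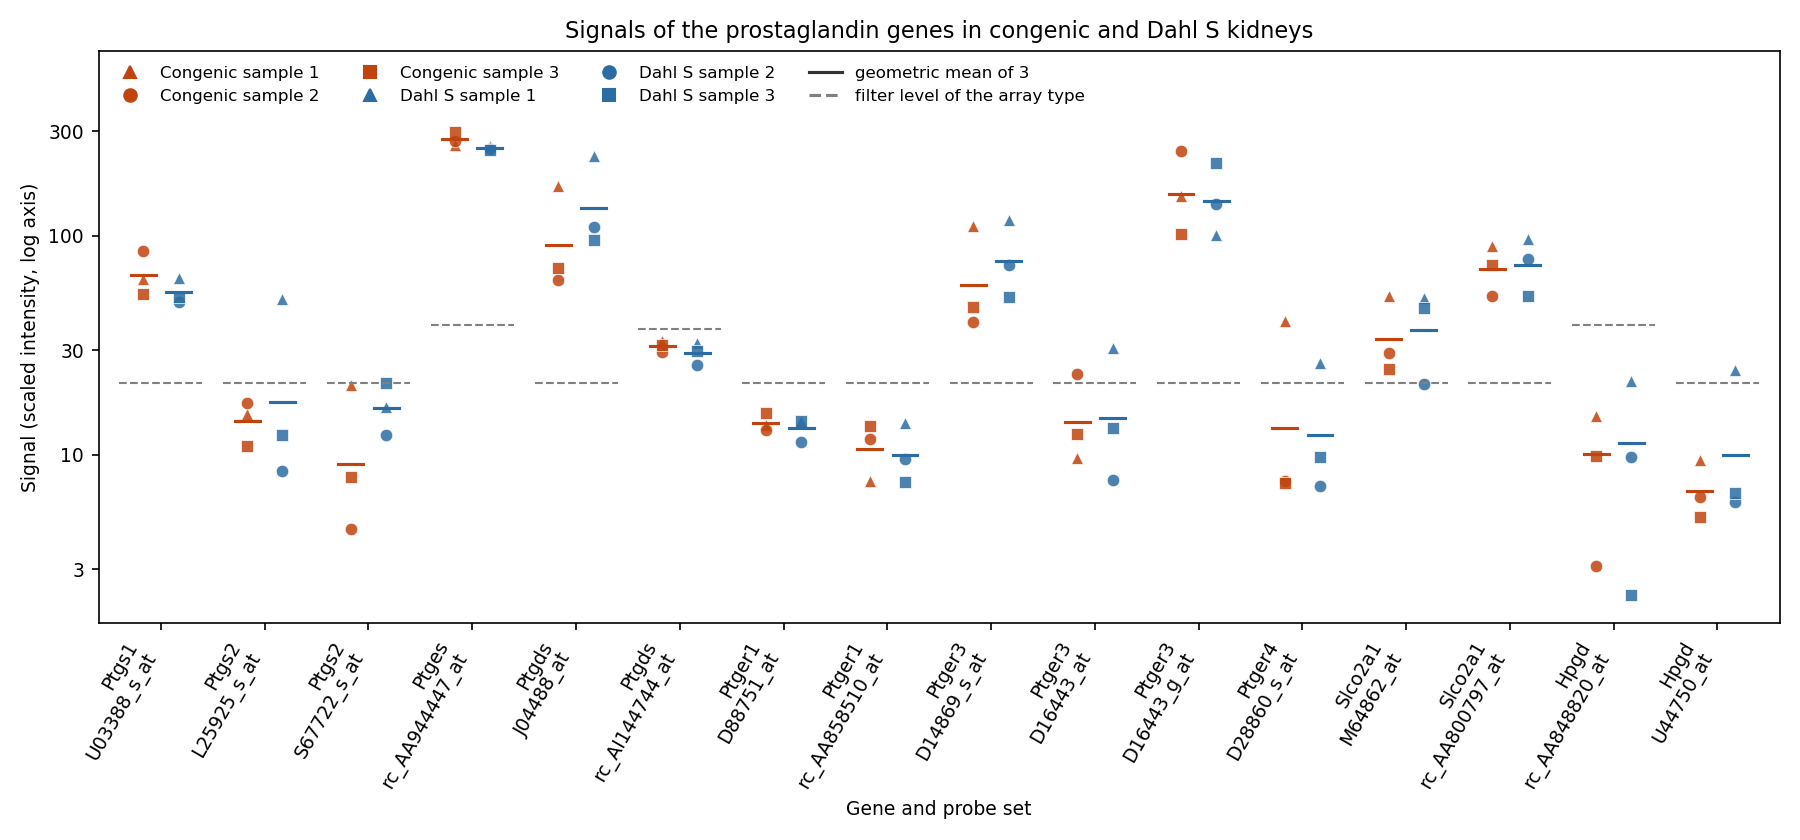
Signal of each of the 16 probe sets (scaled intensity, log axis) in 3 congenic samples (left, orange) and 3 Dahl S samples (right, blue). Bars are geometric means of the 3 samples after flooring, and dashed lines the filter level of the array type. Ptges alone among the probe sets above that line keeps all 3 congenic values above the Dahl S values. Triangles (samples numbered 1) lie highest in both strains for both probe sets of Ptgds, Slco2a1 and Hpgd, for Ptger4 and for Ptger3 D14869_s_at.

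Ptgs1, the constitutive cyclooxygenase gene, had signals of 63.7, 85.5 and 54.2 in the congenic samples, against 64.3, 49.8 and 52.6 in the Dahl S samples. Congenic sample 2 was the highest of the 6, and the remaining values of both strains interleaved. The log2 difference was +0.27 (SE 0.31, 95% interval -0.43 to 0.97), a fold of 1.21 with an interval of 0.74 to 1.96, and limma's adjusted p was 0.9997. Without congenic sample 2 the difference was +0.09. Without Dahl S sample 1 it was +0.38, and the groups did not overlap, as in 17.3% of all tested probe sets. Without both samples numbered 1 it was +0.41, again without overlap, as in 29.9% of all tested probe sets.

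Ptgs2, the inducible cyclooxygenase gene, was at or under the filter level in most samples and was not tested. Its probe set L25925_s_at read 15.4, 17.3 and 11.0 in congenic samples and 51.2, 8.4 and 12.3 in Dahl S samples. Dahl S sample 1 alone exceeded 21.2 there, and the other 5 samples overlapped. The second probe set, S67722_s_at, read 20.8, 4.6 and 7.9 in congenic samples and 16.5, 12.3 and 21.3 in Dahl S samples, and did not share the high value of Dahl S sample 1. The log2 differences of the means were -0.28 and -0.84, with overlapping groups in both. The first turned to +0.49 without Dahl S sample 1 and to +0.44 without both samples numbered 1. The second was -1.43 without congenic sample 1, -0.35 without congenic sample 2 and -1.425 without both samples numbered 1. Its groups did not overlap without congenic sample 1 or without both samples numbered 1, with the congenic samples lower. Among all tested probe sets, to which S67722_s_at does not belong, 18.0% and 29.9% were without overlap in those settings. The share among untested ones was not counted there. When the filter was left out, limma's adjusted p was 1 for both and the 95% intervals ran from -2.22 to 1.65 and from -2.45 to 0.77. At these signals a strain difference of several-fold in COX-2 transcript was not detectable.

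Ptges encodes the inducible microsomal prostaglandin E synthase. It read 259.9, 269.6 and 298.1 in congenic samples, against 257.0, 248.4 and 246.1 in Dahl S samples. The groups did not overlap, but the gap was narrow, 259.9 in the lowest congenic sample against 257.0 in the highest Dahl S sample. The log2 difference was +0.14 (SE 0.20, 95% interval -0.32 to 0.60, fold 1.10 with an interval of 0.80 to 1.51, limma adjusted p = 0.9997). When each array was scaled to the same median the difference was +0.24 and the groups overlapped, where 5.50% of all tested probe sets were without overlap. The SE exceeds the scatter of these 6 values because limma shares the spread among probe sets of like signal.

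Ptgds encodes the lipocalin-type prostaglandin D synthase, which is also a secreted carrier protein. It had the largest difference of the tested probe sets of the 9 genes: 169.6, 62.7 and 71.1 in congenic samples 1, 2 and 3, against 231.9, 109.5 and 96.1 in Dahl S samples 1, 2 and 3. The samples numbered 1 were the highest in each strain, by 1.35 log2 units over the mean of the other two in the congenic strain and by 1.18 in Dahl S. The groups overlapped through congenic sample 1. The log2 difference was -0.56 (SE 0.46, 95% interval -1.63 to 0.50, limma adjusted p = 0.9997), a fold of 0.68 with an interval of 0.32 to 1.41. Without both samples numbered 1 it was -0.62 (SE 0.33, limma adjusted p = 0.9994) and the groups did not overlap. In that setting 3.53% of all tested probe sets had an unadjusted p under 0.05, which Ptgds missed, and 29.9% were without overlap. Without congenic sample 1 alone it was -1.01 (SE 0.41, limma adjusted p = 0.999). Ptgds then had an unadjusted p under 0.05, as did 3.82% of all tested probe sets, and no overlap, as did 18.0%. Without Dahl S sample 1 alone it was -0.17. The second Ptgds probe set, on type C, stayed under the filter level, at 33.1, 29.6 and 31.8 in congenic samples and 32.4, 25.6 and 29.7 in Dahl S samples, a difference of +0.11.

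**Figure D2:**
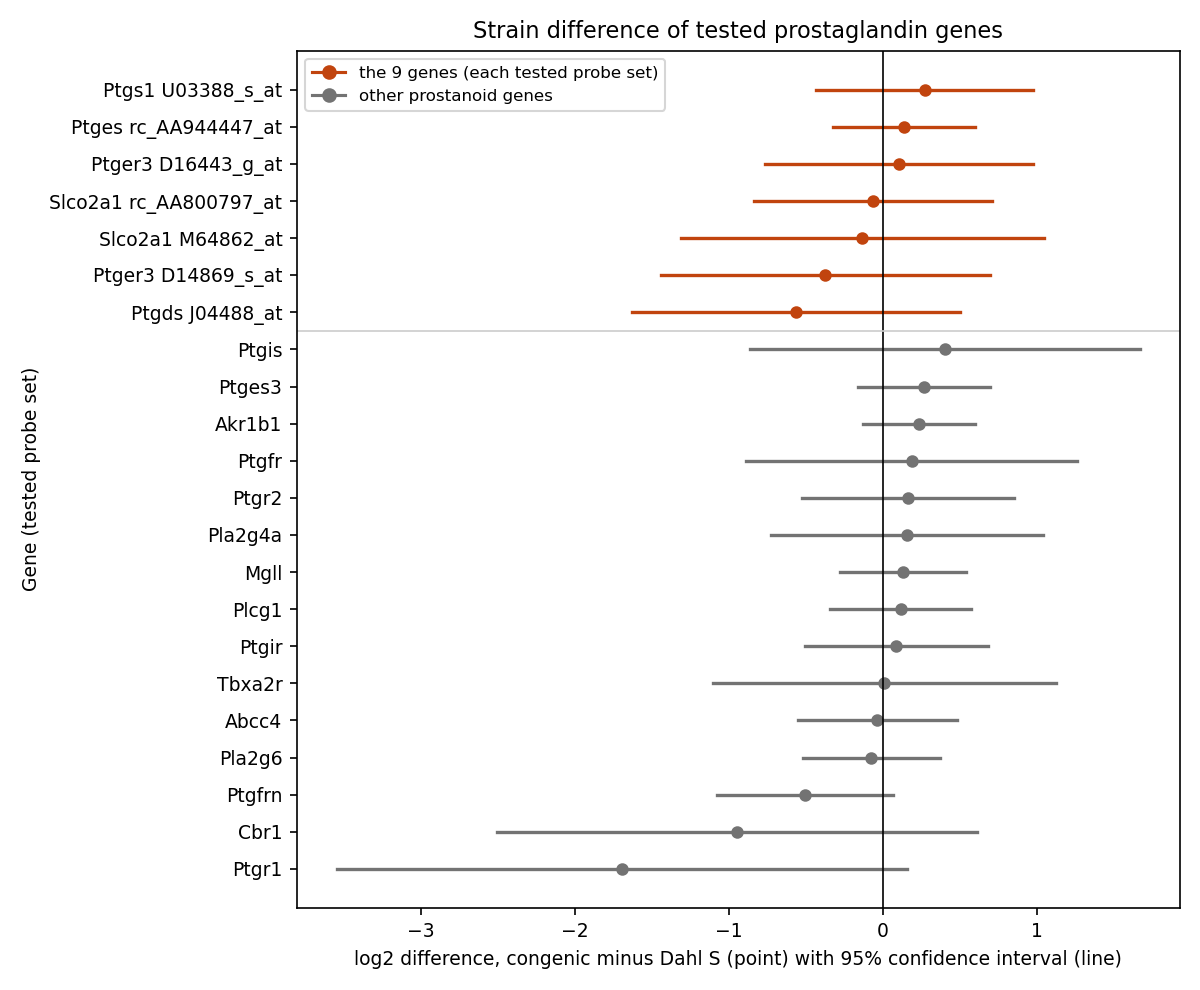
Log2 difference, congenic minus Dahl S, with its 95% confidence interval, for the 7 tested probe sets of the 9 genes (above the line) and for 15 other prostanoid genes (below it). Every interval includes 0. That of Ptges, from -0.32 to 0.60, is the narrowest of the 7, and that of Slco2a1 M64862_at, from -1.31 to 1.04, the widest.

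The receptors of prostaglandin E couple to different signals: that of Ptger1 raises calcium, that of Ptger3 lowers cyclic AMP and opposes vasopressin in the thick limb and collecting duct, and that of Ptger4 raises cyclic AMP. Ptger3, whose transcript is spliced into several receptor isoforms, had 3 probe sets that did not share 1 pattern. D14869_s_at read 110.4, 40.3 and 47.2 in congenic samples and 117.8, 73.7 and 52.7 in Dahl S samples, with both samples numbered 1 on top. Its log2 difference was -0.37 (SE 0.47, 95% interval -1.44 to 0.69, limma adjusted p = 0.9997), and -0.52 (SE 0.43) without both samples numbered 1. It was -0.82 without congenic sample 1 alone and -0.07 without Dahl S sample 1 alone. Its groups did not overlap without congenic sample 1 or without both samples numbered 1, with the congenic samples lower. Among all tested probe sets 18.0% and 29.9% were without overlap in those settings. D16443_g_at read 152.1, 243.5 and 102.1 in congenic samples and 101.2, 139.7 and 214.6 in Dahl S samples, so its highest samples were congenic 2 and Dahl S 3. Its difference was +0.11 (SE 0.38, 95% interval -0.76 to 0.98, limma adjusted p = 0.9997), -0.22 without congenic sample 2 and +0.41 without congenic sample 3. Leaving out Dahl S sample 1 turned it to -0.15. The third, D16443_at, was under the filter level in 2 congenic and 2 Dahl S samples and differed by -0.05, or by +0.75 without both samples numbered 1.

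Ptger1 lay under the filter level in all 6 samples with both probe sets. D88751_at read 13.7, 13.0 and 15.5 in congenic samples and 14.2, 11.4 and 14.2 in Dahl S samples, and rc_AA858510_at read 7.6, 11.8 and 13.6 in congenic samples and 14.0, 9.6 and 7.5 in Dahl S samples. Both differed by +0.09 and both overlapped, and without both samples numbered 1 the differences were +0.16 and +0.58. In that setting the groups of rc_AA858510_at did not overlap, as in 29.9% of all tested probe sets, to which it does not belong. The share among untested ones was not counted there. Ptger4 read 40.8, 7.6 and 7.4 in congenic samples and 26.3, 7.2 and 9.8 in Dahl S samples. The samples numbered 1 alone exceeded the filter level, in each strain, and the other 4 lay between 7.2 and 9.8. Its difference of +0.10 was -0.71 without congenic sample 1 and +0.65 without Dahl S sample 1, and -0.16 without both.

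Slco2a1, the prostaglandin transporter, was measured by 2 tested probe sets. The brighter, rc_AA800797_at, read 89.7, 53.0 and 73.3 in congenic samples and 96.3, 78.1 and 53.2 in Dahl S samples. The other, M64862_at, read 53.3, 29.3 and 24.6 in congenic samples and 51.8, 21.1 and 46.6 in Dahl S samples. The sample numbered 1 was the highest of its strain with both, and the strains overlapped throughout. The log2 differences were -0.07 (SE 0.34, 95% interval -0.84 to 0.70) and -0.14 (SE 0.51, 95% interval -1.31 to 1.04), both with a limma adjusted p of 0.9997. The sign of the first turned to +0.14 without congenic sample 2 and to +0.13 without Dahl S sample 1. The second was -0.47 without congenic sample 1 and +0.11 without Dahl S sample 1.

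Hpgd, which oxidises prostaglandins to inactive products, was not tested. Its type B probe set read 15.1, 3.1 and 9.9 in congenic samples and 21.7, 9.8 and 2.3 in Dahl S samples, where 3.1 and 2.3 lay under the floor of 6.8. Its type A probe set read 9.5, 6.4 and 5.2 in congenic samples and 24.5, 6.1 and 6.7 in Dahl S samples. Dahl S sample 1 alone passed the filter level of 21.2 on type A. The log2 differences were -0.17 and -0.55 with overlap in both. Without Dahl S sample 1 they turned to +0.30 and +0.09, and without both samples numbered 1 they were 0.007 and -0.15.

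Some of these genes, and not others, had their highest signal in the samples numbered 1. In 4 of the 7 tested probe sets, those of Ptgds, Ptger3 D14869_s_at and Slco2a1 (both), sample 1 was the highest of its 3 in both strains, against 20.0% of all tested probe sets. The same held for 4 of the 9 untested probe sets, those of Ptger4, Hpgd (both) and Ptgds on type C, against 28.2% of all untested ones. The excess of sample 1 over the mean of samples 2 and 3 was 1.34 log2 units in congenic and 0.92 in Dahl S kidneys for Ptger3 D14869_s_at, and 0.99 and 0.72 for Slco2a1 M64862_at. Ptgs1, Ptges, Ptger3 D16443_g_at and D16443_at, and both probe sets of Ptgs2 and of Ptger1 did not show it. The array medians and the control ratios given above separate the same samples, and their part in this pattern was not tested. In whole-tissue RNA, fewer cells of a type and less RNA per cell cannot be told apart.

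**Figure D3:**
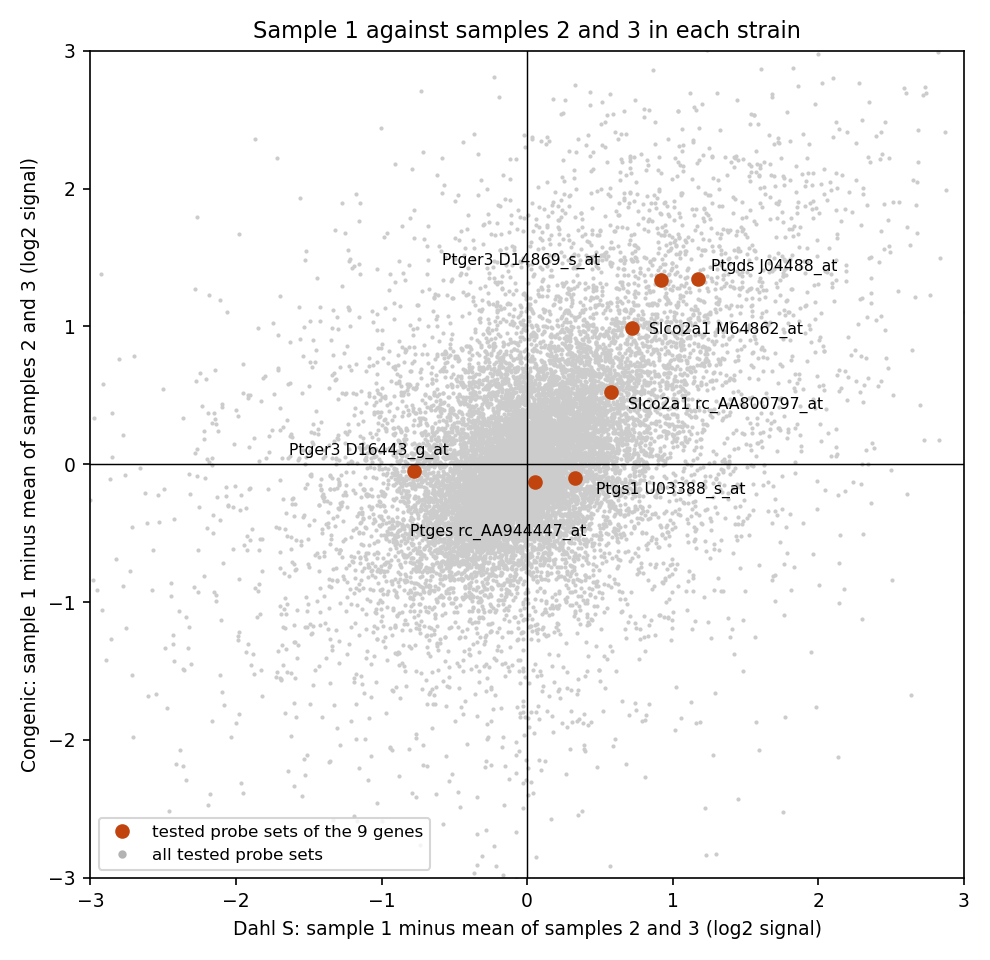
Log2 signal of sample 1 minus the mean of samples 2 and 3, in the congenic strain (vertical axis) against the Dahl S strain (horizontal axis), for all tested probe sets (grey) and the 7 of the 9 genes (orange). Ptgds, Ptger3 D14869_s_at and both Slco2a1 probe sets lie in the upper right, high in sample 1 of both strains, and 74 grey points lie beyond the axis limits of 3.

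**Figure D4:**
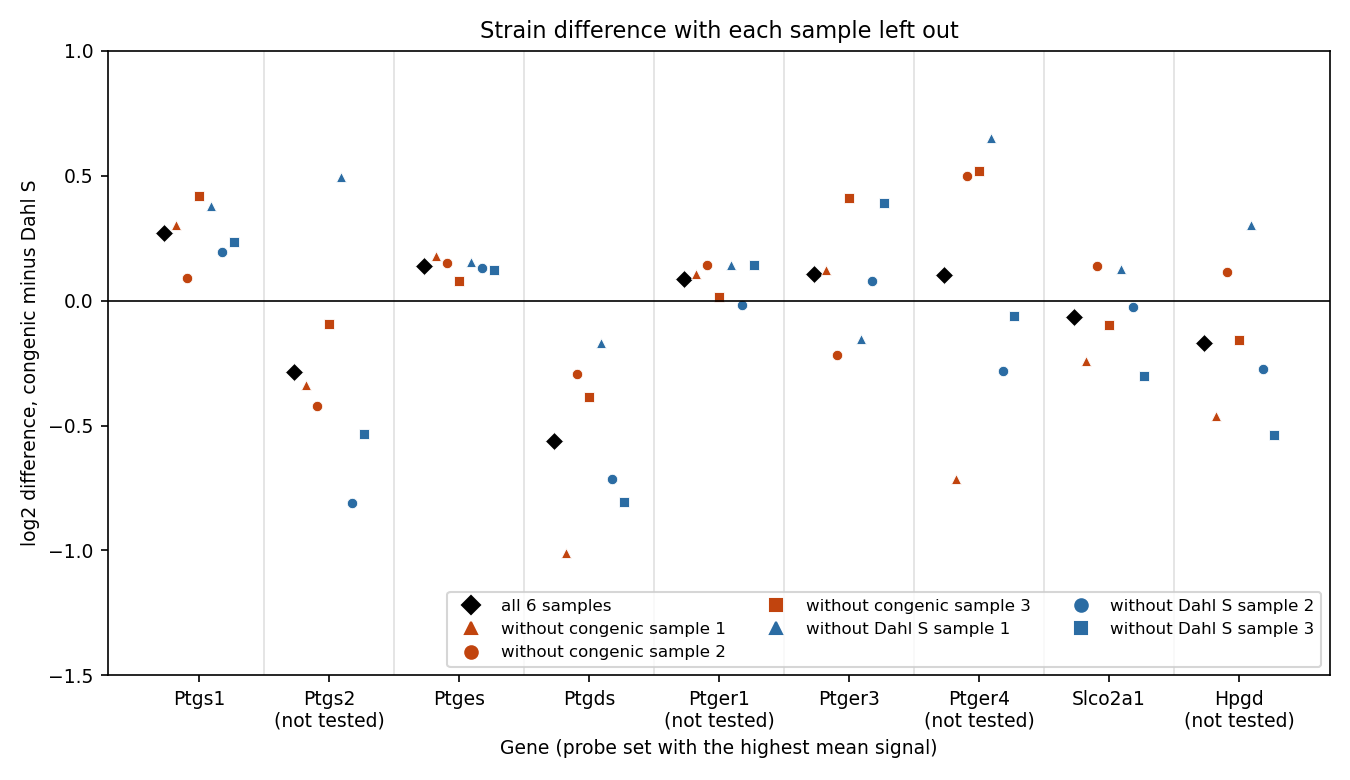
Log2 difference, congenic minus Dahl S, of the probe set with the highest mean signal of each gene, with all 6 samples (black) and with each sample left out (orange for congenic, blue for Dahl S). Ptges stays between 0.08 and 0.18, Ptgds spans -1.01 to -0.17 and Ptger4 spans -0.71 to 0.65.

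No other tested gene of the prostanoid pathway passed the test either. Of 26 further genes listed for arachidonic acid release, other terminal synthases, other receptors and prostaglandin reductases, 22 had a probe set and 15 were tested. Of these 10 had higher and 5 lower congenic means (48.9% of all tested genes were higher), with a median of +0.11 that was -0.04 without Dahl S sample 2. In limma 0 of the 15 passed the adjusted threshold and 0 had an unadjusted p under 0.05, against 2.35% of all tested genes. In 2 of the 15 the groups did not overlap, against 7.62% of all tested genes, both lower in the congenic samples: Ptgr1 and Ptgfrn. Ptgr1, a reductase that inactivates prostaglandin and leukotriene products, read 38.4, 5.6 and 60.7 in congenic samples, against 65.6, 81.9 and 82.4 in Dahl S samples. Congenic sample 2 lay under the filter level, so the size of the log2 difference (-1.69, SE 0.80, limma adjusted p = 0.9997) is uncertain. Ptgfrn, a membrane protein that binds near the prostaglandin F receptor, read 60.6, 58.9 and 66.0 in congenic samples, against 97.8, 87.2 and 79.1 in Dahl S samples (-0.51, SE 0.25, limma adjusted p = 0.9997). The cytosolic prostaglandin E synthase Ptges3 differed by +0.27 (SE 0.19) and the aldose reductase Akr1b1, which can form prostaglandin F, by +0.23 (SE 0.16).

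Among other receptors and synthases, none of which had an unadjusted limma p under 0.05, the prostacyclin receptor Ptgir differed by +0.09 (SE 0.26), the prostaglandin F receptor Ptgfr by +0.19 (SE 0.47) and the thromboxane receptor Tbxa2r by +0.01 (SE 0.48). The prostacyclin synthase Ptgis differed by +0.40 (SE 0.55), with Dahl S sample 1 at 13.3 and the other 5 samples at 29.9 to 45.0. Pla2g4a, the cytosolic phospholipase that releases arachidonic acid, differed by +0.15 (SE 0.38). Cbr1, a carbonyl reductase of prostaglandin E, differed by -0.95 (SE 0.68), and congenic sample 3 read 10.8 against 61.1 to 75.2 in the other 5 samples. The thromboxane synthase Tbxas1 was not tested and read 30.3, 26.4 and 24.4 in congenic samples against 8.4, 16.9 and 23.2 in Dahl S samples. Its groups did not overlap, with the congenic samples higher, against 4.97% of all untested probe sets without overlap in either direction. Ptger2, the other receptor of prostaglandin E that raises cyclic AMP, was not tested either. It read 37.6, 34.8 and 16.0 in congenic samples and 4.2, 20.8 and 3.7 in Dahl S samples, a difference of +2.01 between levels that all 3 Dahl S samples place under the filter level.

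Genes that act on Ptgs2 or mark cells that express the 9 genes gave the following counts, from lists chosen with earlier results of these data known. Of 16 tested inducers and regulators of COX-2 expression, 13 had lower congenic means (51.1% of all tested genes were lower), with a median of -0.22 that was -0.05 without congenic sample 1. The transcription factors Jun (-0.66, SE 0.31) and Cebpb (-0.68, SE 0.35) had the smallest p of that list, and the 3 other Jun probe sets differed by -1.496, -0.02 and +0.05. Of 4 tested macula densa and renin cell genes 2 were higher, among them the potassium channel Kcnj1 (+0.26, SE 0.15), and 2 lower, among them the nitric oxide synthase Nos1 (-0.47, SE 0.45). Their median of -0.20 was +0.18 without congenic sample 2. Genes of medullary osmolyte handling, from a part of the kidney rich in prostaglandin synthesis, had higher congenic means in 7 of 7 (median +0.23). Among all tested genes 48.9% were higher. The smallest difference of the 7 was 0.005 for Nfat5. The inositol transporter Slc5a3 read 185.7, 118.0 and 164.3 in congenic samples, against 112.3, 102.9 and 102.6 in Dahl S samples (+0.53, SE 0.23, limma adjusted p = 0.9997). The urea transporter Slc14a2 differed by +0.44 (SE 0.27). Akr1b1, Nfat5 and the water channels Aqp1 and Aqp2 stand in that list and in another one too.

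Collecting duct markers had higher congenic means in 7 of 11 (median +0.04, -0.03 without congenic sample 1), against 48.9% of all tested genes. The anion exchanger Slc26a4 was at +0.27 (SE 0.21) and Aqp2 at +0.18 (SE 0.15). Interstitial and stromal markers had lower congenic means in 10 of 11 genes (median -0.38), against 51.1% of all tested genes. An unadjusted limma p under 0.05 was reached by 3 of the 11, against 2.35% of all tested genes. The smallest p were those of the matrix proteins Dcn (-0.69, SE 0.17) and Col1a1 (-0.38, SE 0.13). The median deviation of these markers from each gene's mean was -0.12, -0.24 and +0.02 in congenic samples 1, 2 and 3, against +0.10, +0.33 and +0.18 in Dahl S samples 1, 2 and 3. Leukocyte markers had lower congenic means in 11 of 13 (median -0.38), and 1 of the 13 had an unadjusted limma p under 0.05. The smallest p were those of Coro1a (-0.81, SE 0.33) and Cd68 (-0.43, SE 0.19). Their median deviation was -0.15, -0.10 and -0.38 in congenic samples, against +0.16, +0.37 and +0.04 in Dahl S samples. In both lists this median was lower in every congenic sample than in every Dahl S sample. That is a description only, since the lists were chosen with earlier results of these data known and no list was tested. Gene by gene, the groups did not overlap in 3 of 11 interstitial and stromal markers and in 4 of 13 leukocyte markers. All of those were lower in the congenic samples, and 7.62% of all tested genes were without overlap in either direction. In both lists 0 genes passed limma's adjusted threshold. The part of these cells in the values of the 9 genes was not tested.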

How the data were processed

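Kidney RNA from 3 congenic and 3 Dahl S samples was measured on 18 arrays, 3 types per sample. Groups and sample numbers came from the sample titles, and arrays of a sample were joined by its tag. The authors' deposited values are linear intensity values, 1 per probe set, and from the values each array had been scaled to a trimmed mean of 150.1 to 150.2. No source used here names the summarising software. For each type, deposited intensities below the 10th percentile (3.1 on type A, 6.8 on B, 4.9 on C) were set to it before taking log2. Without the 59 controls of a type 26202 probe sets remained, of which 15721 at or above the 40th percentile of mean log2 signal were tested. The strain comparison used R 4.3.3 and limma 3.58.1 (lmFit, eBayes with an intensity trend), 1 fit per type, Benjamini-Hochberg over all types. The fit was tested on simulated data. Where 1 probe set stands for a gene, it is the one of highest mean log2 signal. The genes and lists were chosen with earlier results of these data known. All 9 genes were named with every probe set, of the other prostanoid genes the 4 with the smallest p and the receptors and terminal synthases, and of each further list the 2 with the smallest p. Cbr1, Pla2g4a, Nfat5, Aqp1 and the other Jun probe sets fall outside that rule and were chosen after their values were seen. Alternatives covered floor, filter, scaling, variance model, sample number as a block, samples left out and adjustment. Figures used matplotlib 3.10.9 in Python 3.11.15.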

Additional observations from a re-analysis of the deposited data

How the results depend on the processing

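The count of probe sets past the adjusted threshold, over all and among the 9 genes, was 0 under every alternative run. The count of the 9 genes' probe sets with an unadjusted limma p under 0.05 was 0 with 1 sample left out, except 1 (Ptgds) without congenic sample 1. It was also 1 with the sample number as a replicate block (Ptgds, -0.56, SE 0.23, limma adjusted p = 0.923), where 5.21% of all tested probe sets passed that limit. Samples of the same number are not stated to be pairs: their deviations correlated at 0.45, 0.08 and 0.18 for numbers 1, 2 and 3, and congenic sample 2 correlated better with Dahl S sample 3 (0.15). Tested probe sets without overlap numbered 1 in the main setting, 0 with median scaling (5.50% of all tested), 4 without both samples numbered 1 (29.9%) and 1 to 3 with 1 sample left out (3 without congenic sample 1, 18.0%, and 2 without Dahl S sample 1, 17.3%), settings chosen for this count after seeing the data. The median log2 difference of the 9 genes ran from -0.24 to 0.16 with 1 sample left out. With all samples kept, it was -0.10 when each gene's tested probe sets were averaged, so its sign depended on that choice. Ptger3 turned to -0.14 without both samples numbered 1 and to -0.13 as the mean of its tested probe sets, and ran from -0.22 to 0.41 with 1 sample left out. Slco2a1 ran from -0.30 to 0.14 there. The causes were not tested. Low signal limits Ptgs2, Ptger1, Ptger4 and Hpgd.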

Other observations

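The leukotriene branch of arachidonic acid metabolism was measured by few probe sets: of 12 listed genes 4 had a probe set and 3 were tested. The lipoxygenase Alox15 read 130.1, 100.8 and 164.5 in congenic samples and 35.9, 145.5 and 182.4 in Dahl S samples (log2 difference +0.39, SE 0.57). Alox5ap, the activating protein of the leukotriene pathway, differed by -0.28 (SE 0.41), and 0 of the 3 passed limma's adjusted threshold.

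Genes with a like pattern were looked up for Ptges, chosen for its bright probe set, which ranks no transcript levels. Among 8167 other genes over the same 6 samples, the signals most like it were those of Phpt1 (Pearson r = 0.994), Hao2 (r = 0.987) and Ppp1r1a (r = 0.982). These are the highest of a search over that many genes and 6 values, given as a description, and Ptges itself spans only 246.1 to 298.1.

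Markers of other kidney cells were measured as well, beside 48.9% of all tested genes with a higher congenic mean. Proximal tubule markers had higher congenic means in 13 of 15 tested genes (median +0.13), with Pck1 at +0.31 (SE 0.16) and Cubn at +0.18 (SE 0.12). Thick ascending limb markers were higher in 5 of 6 (median +0.18, and 0.003 without Dahl S sample 3). Endothelial markers were higher in 6 of 9 (median +0.08, and -0.16 without congenic sample 2), with Emcn at +0.36 (SE 0.16) and Pecam1 at -0.40 (SE 0.28). Of these 3 lists 0 genes passed limma's adjusted threshold.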
